A study of Nicotiana tabacum with 6 samples.

Results

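The UDP-glycosyltransferases described here are 85 gene models of tobacco (Nicotiana tabacum), out of 69500 models in the deposited tables. They were chosen by their description, UDP-glucuronosyl/UDP-glucosyltransferase, and by a mean abundance of at least 1 over all 6 libraries. The level of a member was therefore used in choosing it. Expression was measured by RNA-seq in young leaves of variety NC82 at the seedling stage, all taken after 24 h at 4 °C. The 6 libraries form 2 groups of 3, NtPhyA overexpression plants and wild type, both chilled in the same way. NtPhyA carries the name of phytochrome A, a light receptor. The labels state neither the promoter of the transgene nor the number of lines, nor whether plants were pooled. No unchilled leaves were analysed here, so the comparison is between plant materials and not between temperatures.

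UDP-glycosyltransferases move a sugar, usually glucose, from a UDP-sugar onto small molecules such as flavonoids, hydroxycinnamic acids, terpenoids, salicylic acid and other hormones. The sugar makes the acceptor more soluble in water and often less reactive, and many of the glycosides are stored in the vacuole, where beta-glucosidases and other enzymes can later act on them. Plant genomes hold large families of these enzymes, often in tandem copies, and tobacco leaves are known for glucosylating phenylpropanoids such as scopoletin. The description in the files is the same for all 85 members and names neither the acceptor nor the sugar, so the members are identified below by their model identifiers alone.

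Values are a normalized abundance per model and library, whose exact unit is not stated. Levels of different models are compared on the assumption that the unit is per transcript length, as both TPM and FPKM are. The library totals ranged from 440137 to 475581 in the overexpression libraries and from 450972 to 568208 in the wild-type libraries. Read totals are not stated. Judged by the value taken to be 1 read in low models, the deepest and shallowest libraries differed about 1.37-fold in sequencing depth. This is a rough estimate that could not be checked without read counts. Summed chlorophyll a/b-binding transcripts, a mark of leaf mesophyll, ranged from 1969 to 9148 in the overexpression libraries and from 1678 to 7099 in the wild-type libraries, so leaf transcripts were abundant in each. The transgene could not be singled out, since 5 models, 1 of them with a mean of at least 1, share the description phytochrome A/B/C/D/E. Together they were at 2.86, 1.86 and 1.15 in overexpression replicates 1, 2 and 3 and at 2.83, 1.70 and 1.33 in wild-type replicates 1, 2 and 3, so the overexpression named in the labels was not visible in these sums. Whether replicates are separate plants is not said in the labels. The p-values therefore cover only variation among the libraries themselves, part or all of which may be technical.

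Of the 340 models with the family description, 93 were listed at 0 in all 6 libraries and a further 162 were above 0 in some library with a mean below 1. The 85 members are 25% of the family, and 25.8% of all models reached the same mean. The models under the minimum together held 2.28% of the summed abundance of the family. A second domain text, glycosyl transferase family 28, was attached to 8 of the 340 models. In plants this domain is known from sterol glucosyltransferases. None of these 8 reached the minimum, and the highest of them, Nitab4.5_0001062g0110, was at 0.96, 1.13 and 0.61 in the overexpression libraries and 0.70, 0.89 and 0.45 in the wild-type libraries. The members nearest above the minimum were Nitab4.5_0002292g0010, Nitab4.5_0000965g0040 and Nitab4.5_0001574g0010, with means of 1.14, 1.11 and 1.02. The models nearest below it were Nitab4.5_0002039g0060, Nitab4.5_0017552g0010 and Nitab4.5_0002292g0020, with means of 0.988, 0.895 and 0.89. Of the 85 members, 76 had a mean of at least 1 in both groups, 6 reached 1 in the overexpression group only and 3 in the wild-type group only.

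Family abundance was concentrated in few members. The median member had a mean of 5.76, beside 6.09 for all 17962 models that reached the minimum, and 41 members were below 5. Only 8 members reached 50 and 3 reached 100. The 3 most abundant members held 29.6% of the summed abundance of the 85, and the 10 most abundant held 57.4%. Of the 85, 83 were above 0 in every library. How the authors' counting divided reads between near-identical copies is not stated, and such copies arise in tobacco from its 2 subgenomes and from tandem duplication. The level of a single member carries this uncertainty.

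The most abundant member, Nitab4.5_0002815g0140, stood 391st by mean among all 69500 models. It was at 137, 162 and 289 in overexpression replicates 1, 2 and 3, against 142, 123 and 196 in wild-type replicates 1, 2 and 3. Its ranges overlapped, and replicate 3 was the highest library of both plant materials. Nitab4.5_0013596g0010 came next, at 90.2, 126 and 267 in the overexpression libraries and 61.0, 187 and 200 in the wild-type libraries. Here replicate 1 was the lowest library of each plant material. Nitab4.5_0008193g0030 was at 56.9, 115 and 112 in the overexpression libraries and 85.5, 150 and 126 in the wild-type libraries, again lowest in both replicates numbered 1. Nitab4.5_0007562g0010 was also lowest in both replicates numbered 1, with 39.7, 69.3 and 65.1 in the overexpression libraries and 57.8, 84.8 and 103 in the wild-type libraries.

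**Figure D1:**
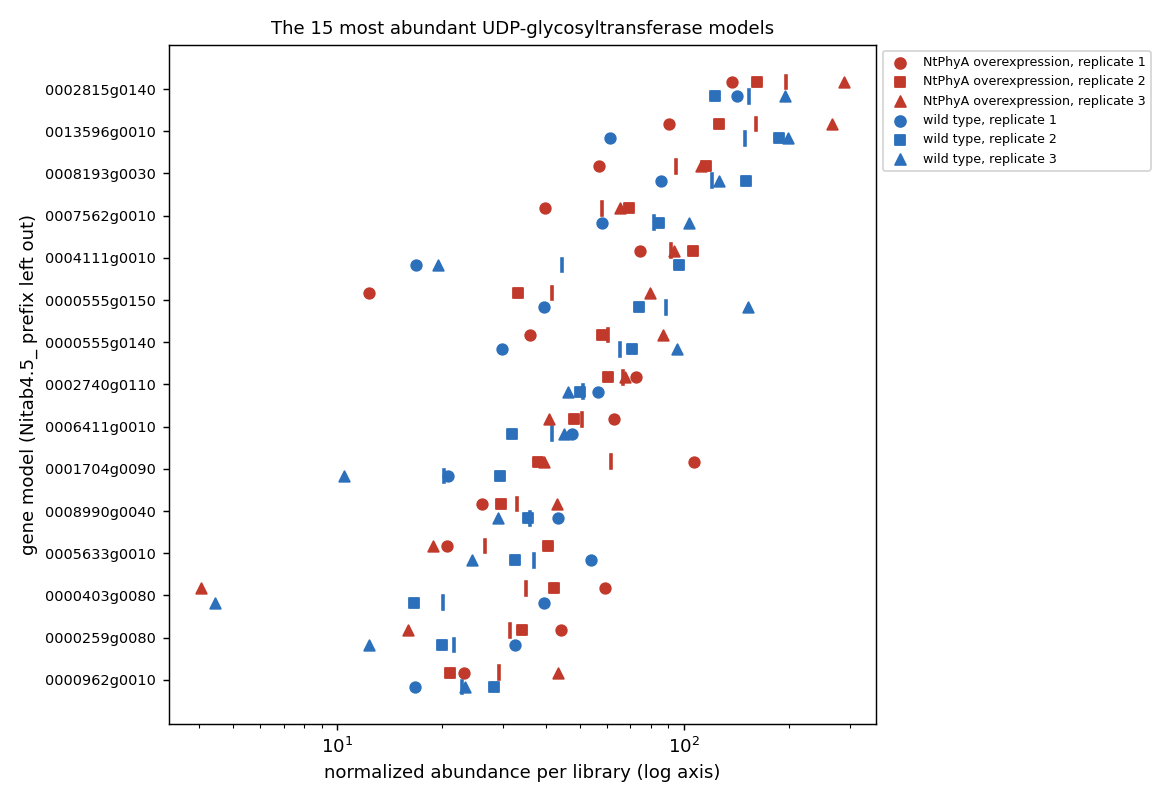
Normalized abundance (log axis) of the 15 most abundant UDP-glycosyltransferase models in each of 6 libraries, with overexpression drawn above wild type for each model. Points are libraries and vertical bars are group means (n = 3). The ranges of the plant materials overlap in all but Nitab4.5_0002740g0110 and Nitab4.5_0001704g0090, and Nitab4.5_0000403g0080 spans 4.04 to 58.9 within the overexpression group.

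Not every abundant member varied to this extent. Nitab4.5_0002740g0110, the eighth by level, had the narrowest range of the 15, at 72.5, 60.4 and 67.5 in the overexpression libraries and 56.4, 50.1 and 46.3 in the wild-type libraries. Nitab4.5_0006411g0010 was at 62.9, 48.1 and 40.7 in the overexpression libraries, against 47.5, 32.0 and 45.1 in the wild-type libraries, and its groups overlapped. Nitab4.5_0008990g0040 had 26.2, 29.6 and 43.1 in the overexpression libraries and 43.4, 35.5 and 29.0 in the wild-type libraries. In that member the highest library was replicate 3 of the overexpression plants but replicate 1 of the wild type. Nitab4.5_0005633g0010, at 20.7, 40.4 and 18.9 in the overexpression libraries and 53.8, 32.5 and 24.5 in the wild-type libraries, was highest in replicate 2 of the overexpression plants and in replicate 1 of the wild type. Nitab4.5_0000259g0080 had 44.2, 34.04 and 16.0 in the overexpression libraries and 32.5, 20.1 and 12.35 in the wild-type libraries, and Nitab4.5_0000962g0010 had 23.2, 21.1 and 43.4 in the overexpression libraries and 16.8, 28.3 and 23.4 in the wild-type libraries.

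Members varied widely within the groups. The range of a member over the libraries had a median of 1.60 on the log2(abundance + 1) scale, beside 1.14 for all tested models, and the median within-group standard deviation was 0.63, beside 0.43. Replicates 1 and 3 were set against each other within each plant material, a choice made after the values were seen. Between overexpression replicates 1 and 3, 24 of the 85 members (28.2%) differed by at least 4-fold, beside 15.4% of all tested models. Between wild-type replicates 1 and 3 the number was 16 (18.8%), beside 12.3% of all tested models. No test was made of the members against the other models.

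Most members were ordered alike in the 2 plant materials with respect to these libraries. In 34 members (40%) replicate 1 was above replicate 3 in both groups, and in 40 members (47.1%) replicate 3 was above replicate 1 in both, while 11 were mixed. Among all tested models the shares were 36.1%, 30.6% and 33.3%. The labels give the groups the same replicate numbers without saying that a number marks a shared batch or day. The 34 members summed to 712, 481 and 283 in overexpression replicates 1, 2 and 3 and to 535, 340 and 227 in wild-type replicates 1, 2 and 3. The 40 members summed to 585, 883 and 1404 in the overexpression libraries and to 579, 1109 and 1227 in the wild-type libraries. These sums describe members sorted by the same values and carry no test. Chlorophyll a/b-binding transcripts differed between the libraries as the 34 members did, summing over 93 models, 13 of them at 0 throughout, to 9148, 5094 and 1969 in the overexpression libraries and 7099, 3588 and 1678 in the wild-type libraries. The Rubisco small subunit, another leaf marker, summed over 14 models to 29354, 18662 and 11895 in the overexpression libraries. In the wild-type libraries it summed to 22073, 12152 and 6560. Photosystem models, also leaf markers, summed over 197 models, 61 of them at 0 throughout, to 22545, 15211 and 8172 in the overexpression libraries. In the wild-type libraries they summed to 16955, 11749 and 11047, with replicates 2 and 3 close to each other. Models described as terpene synthase or terpenoid, which include enzymes of glandular trichomes, summed to between 964 and 1443 in the overexpression libraries and between 795 and 1076 in the wild-type libraries. Histone and kinesin models, which mark dividing cells, summed to between 2725 and 4144 in the overexpression libraries and between 2299 and 2985 in the wild-type libraries, so that the groups overlapped in all of these sums. The part of leaf composition or condition in these profiles was not tested, and in RNA from whole leaves fewer cells of a type and less RNA per cell cannot be told apart.

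**Figure D2:**
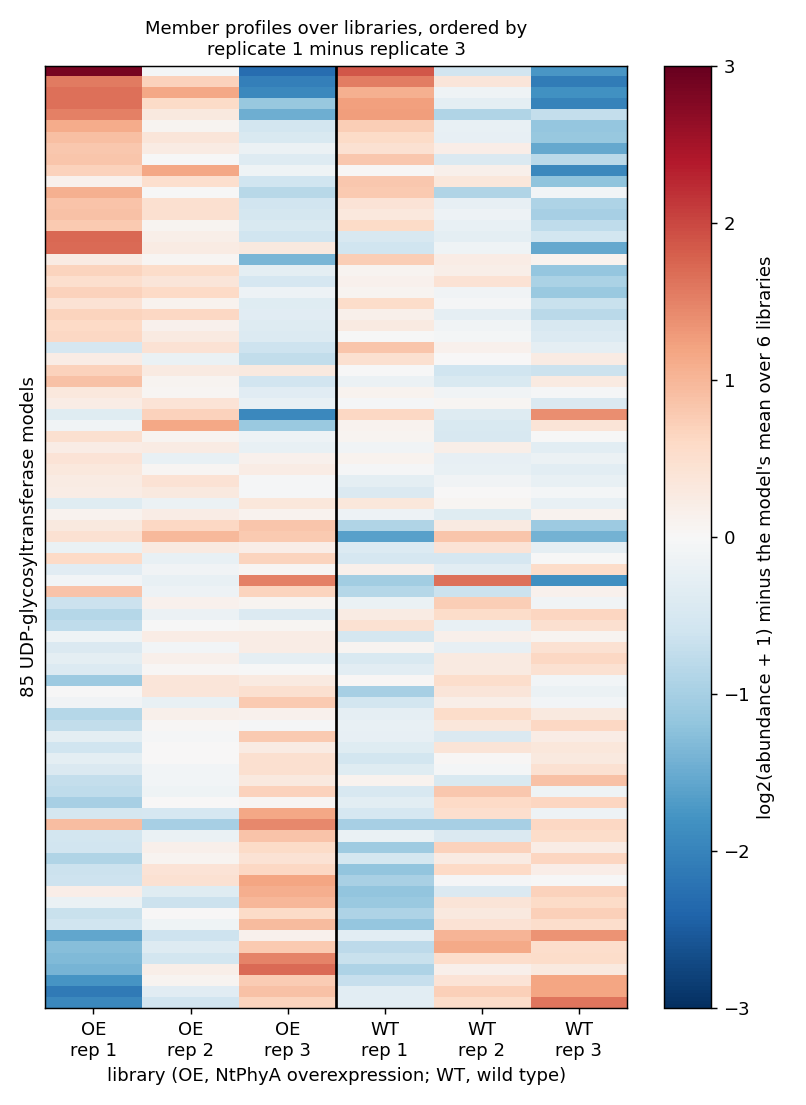
Each row is 1 of the 85 UDP-glycosyltransferase models and each column is a library. Colour gives log2(abundance + 1) minus the row's mean over the 6 libraries, and rows are sorted by replicate 1 minus replicate 3 summed over both plant materials. Red in replicates 1 at the top and in replicates 3 at the bottom shows on both sides of the line that divides the plant materials, as in the 34 and 40 members counted in the text.

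The member with the widest range was Nitab4.5_0000200g0190. It was at 40.2, 4.48 and 0.17 in overexpression replicates 1, 2 and 3, against 19.8, 2.85 and 0.71 in wild-type replicates 1, 2 and 3. Replicate 1 exceeded replicate 3 by 236-fold in the overexpression plants and by 27.8-fold in the wild type, with replicate 2 between them in both. Nitab4.5_0016068g0010 was nearly the same in the 2 plant materials library by library, at 39.9, 21.5 and 2.38 in the overexpression libraries and 39.6, 16.9 and 2.27 in the wild-type libraries. Its replicate 1 exceeded its replicate 3 by 16.8-fold and 17.4-fold. Nitab4.5_0000403g0080 had 58.9, 42.0 and 4.04 in the overexpression libraries and 39.4, 16.6 and 4.44 in the wild-type libraries. Nitab4.5_0012974g0030 had 40.1, 18.6 and 4.97 in the overexpression libraries and 30.1, 9.65 and 2.26 in the wild-type libraries. Both members were lowest in replicate 3 and highest in replicate 1 of each plant material.

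The opposite order was led by abundant members. Nitab4.5_0000555g0150 was at 12.3, 33.2 and 79.5 in overexpression replicates 1, 2 and 3, against 39.5, 73.9 and 153 in wild-type replicates 1, 2 and 3. Its replicate 3 exceeded its replicate 1 by 6.45-fold in the overexpression plants and 3.87-fold in the wild type. Nitab4.5_0008193g0010 had 4.54, 18.7 and 31.1 in the overexpression libraries and 10.6, 24.1 and 41.8 in the wild-type libraries, a difference of 6.84-fold and 3.94-fold. Nitab4.5_0000257g0180, a less abundant member, had 0.86, 2.54 and 4.97 in the overexpression libraries and 3.34, 9.99 and 12.8 in the wild-type libraries. Each of these members was lower in the overexpression library than in the wild-type library of the same number, while the groups as a whole overlapped. Nitab4.5_0027601g0010 followed neither order, with 10.2, 9.10 and 32.4 in the overexpression libraries and 4.68, 36.2 and 2.30 in the wild-type libraries.

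**Figure D3:**
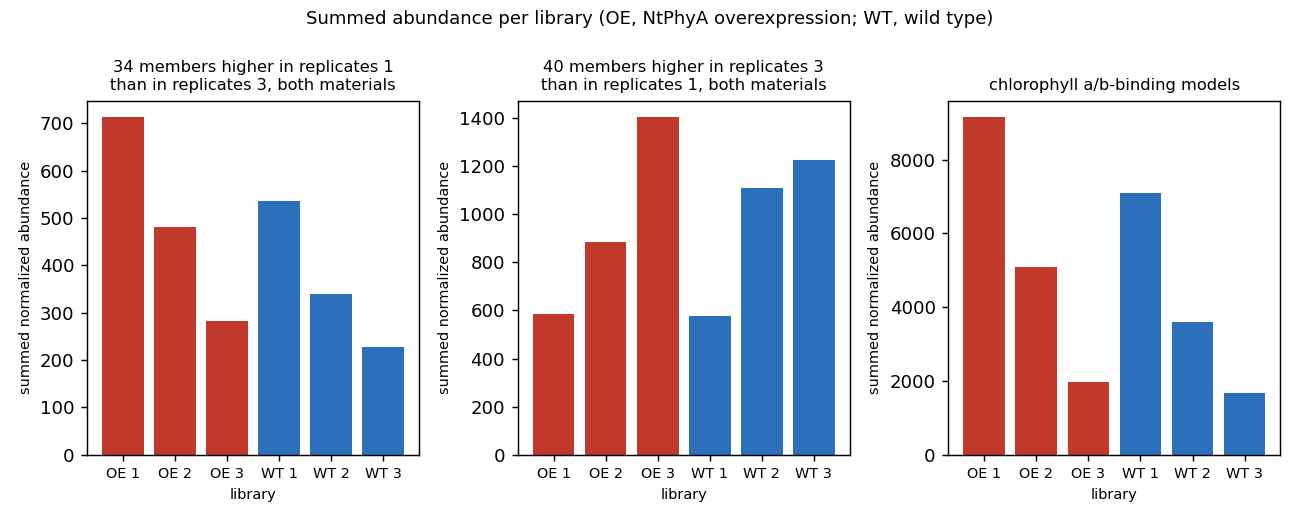
Summed normalized abundance per library (bars start at 0) of the 34 members above replicate 3 in replicate 1 of both plant materials, of the 40 members with the opposite order, and of 93 chlorophyll a/b-binding models, with overexpression libraries left of wild-type libraries. Bars span 227 to 712 in the left panel and 1678 to 9148 in the right panel, highest in the libraries numbered 1 of each plant material, while the middle panel is highest in those numbered 3.

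Some neighbouring copies of the family had unequal levels. The identifiers hold a scaffold number and a gene number, and no genome coordinates are given. With a step of at most 100 between gene numbers on 1 scaffold counted as neighbouring, 133 of the 340 family models (39.1%) lay in 53 runs of at least 2, the largest of 6 models. Of these runs 26 held at least 1 member, and 38 members had a family neighbour. Another member lay within that step of 21 members, and 16 of the 26 runs held a single member. Since 25% of the family are members, single members in short runs carry little meaning by themselves, and no expected number was computed. Beside Nitab4.5_0001704g0090, with a mean of 40.8, the neighbouring Nitab4.5_0001704g0100 was listed at 0 in all 6 libraries. Of the 4 models in the run of Nitab4.5_0002740g0110, which had a mean of 58.9, the highest other model had a mean of 0.547. The run of 6 models that begins at Nitab4.5_0000170g0350 held 3 members, Nitab4.5_0000170g0360, Nitab4.5_0000170g0370 and Nitab4.5_0000170g0490, and 2 models at 0 throughout.

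A step of at most 100 joined 3 members only in Nitab4.5_0008193g0010, Nitab4.5_0008193g0030 and Nitab4.5_0008193g0040, whose means were 21.8, 108 and 9.84. The first of them was lowest in both replicates numbered 1 and highest in both numbered 3, while Nitab4.5_0008193g0040 was at 7.52, 10.6 and 7.72 in the overexpression libraries and 6.63, 11.6 and 15.01 in the wild-type libraries. The pair Nitab4.5_0007562g0010 and Nitab4.5_0007562g0020 lay on opposite sides between the plant materials. Their log2 differences, overexpression minus wild type, were -0.49 ± 0.34 and 0.43 ± 0.24 (SE), neither of which passed the test, and the difference between them was not tested. Nitab4.5_0000555g0140 and Nitab4.5_0000555g0150 had near-equal means of 62.8 and 65.2. Their ranges over the libraries were unequal, at 3.20-fold and 12.4-fold. Nitab4.5_0006870g0010 was 5.21-fold and 11.1-fold higher in replicate 1 than in replicate 3 of the overexpression and wild-type plants. Its neighbour Nitab4.5_0006870g0050 was 1.08-fold and 1.97-fold higher in replicate 3. Both are low members, with means of 1.16 and 1.57, and the first was at only 0.47 and 0.18 in replicates 3. These ratios rest on small values. The pair Nitab4.5_0011395g0010 and Nitab4.5_0011395g0020 had the same order of replicates in both plant materials. They had 21.5, 20.1 and 11.4, and 7.39, 7.11 and 3.17, in the overexpression libraries, against 13.7, 11.9 and 5.36, and 4.89, 3.40 and 2.01, in the wild-type libraries.

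No UDP-glycosyltransferase differed between NtPhyA overexpression and wild type past the threshold. In limma fitted over all 17962 tested models, 0 of the 85 members had a Benjamini-Hochberg adjusted p below 0.05, beside 0.00557% of all models, which is 1 model, higher under overexpression, and 0% lower. The adjusted p of every member was 0.999. At an unadjusted p below 0.05 there were 5 members, 3 higher and 2 lower, beside 2.82% of all models. The groups of 3 did not overlap in 6 members. Of these, 5 (5.88%) were higher under overexpression, beside 4.01% of all tested models, and 1 (1.18%) was lower, beside 3.86%. Of the 76 members at a mean of at least 1 in both groups, 4 were without overlap higher and 1 lower, since Nitab4.5_0003180g0020 passed the minimum through the overexpression group alone. The intervals were wide, with a median half-width of 1.06 log2 units for the 95% interval of a member, and they lay wholly within 1 log2 unit of no difference in 16 members (18.8%), beside 40.7% of all tested models. For the other members a 2-fold difference in some direction was therefore not excluded by the interval. Since 1 was added to each value before the log, an interval within 1 unit can still hold a 2-fold ratio in low members.

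**Figure D4:**
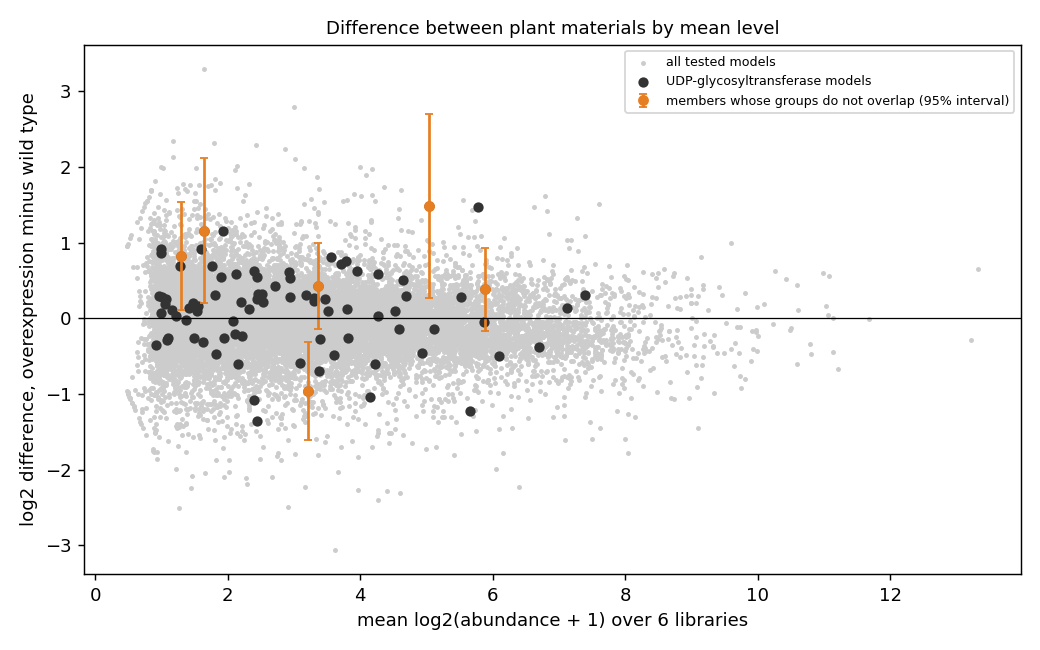
Log2 difference between NtPhyA overexpression and wild type (vertical) against mean log2(abundance + 1) over 6 libraries (horizontal) for 17962 tested models in grey and 85 UDP-glycosyltransferase models in black. The 6 members whose groups of 3 do not overlap are orange with 95% confidence intervals from limma, and none passed an adjusted p of 0.05.

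The smallest p among the members belonged to Nitab4.5_0006222g0020. It was at 4.11, 7.22 and 5.90 in the overexpression libraries, against 10.01, 12.4 and 13.5 in the wild-type libraries. All 3 overexpression values lay below all 3 wild-type values. Its log2 difference was -0.96 ± 0.28 (SE; 95% interval from -1.61 to -0.31). Its limma adjusted p was 0.999, with 0.00978 before adjustment. It was the only member whose groups separated with lower values under overexpression.

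Of the 5 members that separated in the other direction, Nitab4.5_0001704g0090 had the largest difference. It was at 107, 37.9 and 39.4 in the overexpression libraries and 20.9, 29.4 and 10.5 in the wild-type libraries. Overexpression replicate 1 stood well above the rest, and the lowest overexpression value was 37.9 against a highest wild-type value of 29.4. The log2 difference was 1.49 ± 0.52 (SE; 95% interval from 0.27 to 2.71; limma adjusted p = 0.999), and it lay between 1.01 and 1.80 over the alternatives. Nitab4.5_0015089g0010 had 2.83, 3.80 and 4.60 in the overexpression libraries and 0.67, 2.76 and 0.47 in the wild-type libraries, a log2 difference of 1.16 ± 0.41 (SE). Nitab4.5_0003180g0020 had 2.94, 1.95 and 1.98 in the overexpression libraries and 1.44, 0.63 and 0.57 in the wild-type libraries, a log2 difference of 0.82 ± 0.31 (SE). Both are low members, and the pseudocount of 1 understates their ratios. Nitab4.5_0007562g0020 had 11.2, 12.9 and 9.03 in the overexpression libraries and 7.34, 8.55 and 7.77 in the wild-type libraries. Its log2 difference of 0.43 ± 0.24 (SE) and that of the abundant Nitab4.5_0002740g0110, 0.39 ± 0.23 (SE), had 95% intervals that included 0.

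Some members differed widely in mean with overlapping groups. Nitab4.5_0004111g0010, the fifth by level, was at 74.8, 106 and 93.7 in the overexpression libraries and 16.8, 96.6 and 19.6 in the wild-type libraries. Wild-type replicate 2 lay within the overexpression range, while the other wild-type libraries lay far below it. Its log2 difference was 1.47 ± 0.63 (SE; 95% interval from -0.01 to 2.96). Nitab4.5_0000257g0180 averaged 2.79 ± 2.07 in overexpression leaves and 8.73 ± 4.88 in wild-type leaves (SD, n = 3 each), with a log2 difference of -1.36 ± 0.57 (SE; limma adjusted p = 0.999). Nitab4.5_0003185g0040 was listed at 0 in wild-type replicate 3 and at 2.92 and 3.23 in the other wild-type libraries, against 5.15, 7.49 and 2.48 in the overexpression libraries. Whether a 0 marks an absence of reads or a failed estimate is not stated. The overexpression and wild-type ranges of this member overlapped.

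Across the family the differences leaned toward overexpression without any call. The log2 difference was above 0 in 56 of the 85 members (65.9%), beside 48.3% of all tested models, and its median was 0.21, beside -0.01. Of the 76 members at a mean of at least 1 in both groups, 50 were above 0, with a median of 0.17. The median stayed above 0 under each alternative, between 0.09 and 0.28. It was 0.09 without wild-type replicate 3, with 49 members above 0, and 0.13 without overexpression replicate 1, with 53. The count above 0 was lowest, at 48, without overexpression replicate 3, where the median was 0.24. Without wild-type replicate 1 the count was 49 and the median 0.17. Members share libraries and are not replicates of a condition, so no p belongs to these counts.

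The summed abundance of the 85 members was 1370, 1449 and 1793 in overexpression replicates 1, 2 and 3, against 1190, 1548 and 1524 in wild-type replicates 1, 2 and 3. It averaged 1537 ± 225 in overexpression leaves and 1421 ± 200 in wild-type leaves (SD, n = 3 each), a difference smaller than either spread. The log2 ratio of these means was 0.11, and it was -0.01 without overexpression replicate 3. As a share of the library total the members made up 0.288%, 0.321% and 0.407% in the overexpression libraries and 0.259%, 0.343% and 0.268% in the wild-type libraries. The 3 most abundant members alone summed to 285, 403 and 668 in the overexpression libraries and 288, 461 and 521 in the wild-type libraries. Without them the sum was 1085 ± 40 in overexpression leaves and 997 ± 93 in wild-type leaves (SD, n = 3 each). The groups overlapped in this sum, with ranges of 1046 to 1125 and 902 to 1088.

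Genes that supply or use what these enzymes handle were read from descriptions. UDP-sugar supply held 16 tested models, namely 8 UDP-glucose 4-epimerases, 4 UTP-glucose-1-phosphate uridylyltransferases, which make UDP-glucose, 2 sucrose synthases, 1 UDP-glucose/GDP-mannose dehydrogenase and 1 inositol oxygenase. None was called, and 12 of the 16 had log2 differences above 0, with a median of 0.30. That median was 0.19 without overexpression replicate 1, 0.51 without overexpression replicate 3, 0.52 without wild-type replicate 1 and 0.13 without wild-type replicate 3. The inositol oxygenase, which opens a route to UDP-glucuronic acid, had the smallest p of the list. This model, Nitab4.5_0000300g0140, was at 13.1, 10.6 and 6.88 in the overexpression libraries and 4.09, 2.49 and 3.14 in the wild-type libraries (limma adjusted p = 0.999). The most abundant model of the list, the epimerase Nitab4.5_0006775g0100, was at 19.2, 19.4 and 13.1 in the overexpression libraries and 38.5, 15.1 and 34.3 in the wild-type libraries, and its groups overlapped.

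Glycoside removal, by family 1 glycoside hydrolases and a beta-glucosidase, held 6 tested models of 62, with 0 called, 4 above 0 and a median log2 difference of 0.26. Leaving out overexpression replicate 1 gave a median of 0.07, overexpression replicate 3 gave 0.46 and wild-type replicate 1 gave 0.50. Its most abundant model, Nitab4.5_0001644g0100, was at 19.7, 17.0 and 7.71 in the overexpression libraries and 7.48, 11.2 and 5.86 in the wild-type libraries. The beta-glucosidase of GBA2 type, a kind that acts on glucosylceramide, Nitab4.5_0004974g0080, had the smallest p of that list, at 5.58, 8.67 and 7.06 in the overexpression libraries and 4.16, 5.24 and 3.96 in the wild-type libraries. Its groups did not overlap, and its adjusted limma p was 0.999. Acceptor synthesis held 17 tested models, 5 phenylalanine ammonia-lyases, which open the phenylpropanoid pathway, and 12 with chalcone in the description, among them chalcone synthases and isomerases of flavonoid synthesis. None was called, and 11 of the 17 lay above 0, with a median of 0.17. This value was 0.11 without overexpression replicate 1, 0.39 without overexpression replicate 3, 0.26 without wild-type replicate 1 and 0.05 without both replicates numbered 3.

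Some of these genes also separated the libraries by number. The most abundant phenylalanine ammonia-lyase, Nitab4.5_0000101g0270, was at 92.4, 58.8 and 30.3 in overexpression replicates 1, 2 and 3, against 108, 49.8 and 10.6 in wild-type replicates 1, 2 and 3. Replicate 1 was above replicate 3 in both plant materials, as in the 34 members and in 36.1% of all tested models. A chalcone synthase-type model, Nitab4.5_0014110g0010, was less spread, at 12.9, 7.05 and 8.11 in the overexpression libraries and 4.80, 5.12 and 4.73 in the wild-type libraries, with a log2 difference of 0.78 ± 0.28 (SE; limma adjusted p = 0.999).

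Genes of acyl transfer and transport were also matched by description, which does not show that they act on glycosides. Enzymes with the chloramphenicol acetyltransferase-like domain include the acyl-CoA-dependent acyltransferases of plants, and serine carboxypeptidases include both proteases and acyltransferases that use glucose esters as donors. The acyl transfer list, 53 models with a chloramphenicol acetyltransferase-like domain and 9 serine carboxypeptidases, had 0 of 62 called and 39 below 0, with a median of -0.17. It was -0.08 without overexpression replicate 1 or 3, -0.07 without wild-type replicate 3 and -0.05 without both replicates numbered 3. Its most abundant model, Nitab4.5_0002320g0020, was at 340, 678 and 770 in the overexpression libraries and 752, 681 and 764 in the wild-type libraries, with overexpression replicate 1 far below the rest. The smallest p of the list was that of Nitab4.5_0006420g0010, at 10.2, 8.71 and 7.75 in the overexpression libraries and 5.94, 4.07 and 3.18 in the wild-type libraries. The transport list, 51 ABC transporters and 21 multi antimicrobial extrusion proteins, had 0 of 72 called and 44 above 0. Its median of 0.12 was 0.21, 0.19 and 0.02 without wild-type replicate 1, 2 and 3, and -0.003 without both replicates numbered 3. Its most abundant model, Nitab4.5_0002033g0050, was at 388, 312 and 282 in the overexpression libraries and 328, 296 and 261 in the wild-type libraries, where the groups overlapped. The ABC transporter with the smallest p of the list, Nitab4.5_0020128g0010, was at 79.6, 85.4 and 113 in the overexpression libraries and 41.95, 64.6 and 53.6 in the wild-type libraries, without overlap and with a limma adjusted p of 0.999.

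**Figure D5:**
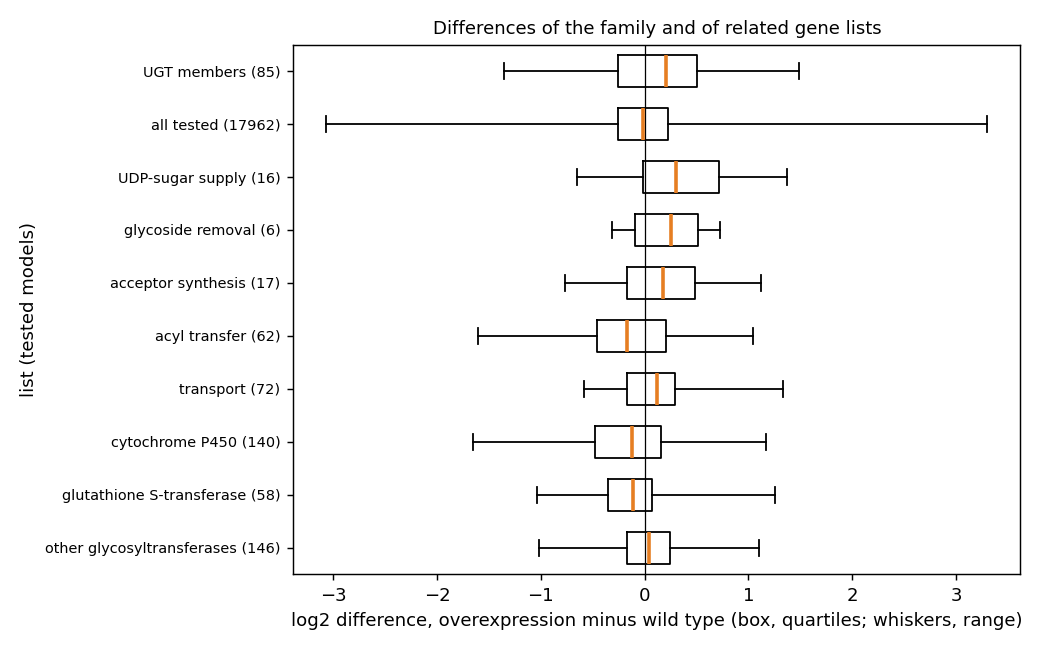
Log2 differences, overexpression minus wild type, of the 85 UDP-glycosyltransferase models, all 17962 tested models and the 8 related lists (number of tested models in brackets). Orange lines are medians, boxes are quartiles and whiskers span the full range. The family median is 0.21 and that of all tested models -0.01.

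Cytochromes P450 and glutathione S-transferases are families known to act beside UDP-glycosyltransferases on plant metabolites and foreign compounds, the first by oxidation and the second by adding glutathione. Of 688 cytochrome P450 models 140 were tested (20.3%), and of 128 glutathione S-transferases 58 (45.3%). Neither family had a called model. The median log2 difference was -0.12 for cytochromes P450, with 56 of 140 above 0, and -0.11 for glutathione S-transferases, with 25 of 58 above 0, against 56 of 85 for UDP-glycosyltransferases. The cytochrome P450 median was -0.02 without overexpression replicate 1, -0.21 without overexpression replicate 3 and -0.18 without both replicates numbered 3. The glutathione S-transferase median turned above 0 under quantile normalization, without wild-type replicate 3 (0.03) and without both replicates numbered 3 (0.04), and it was -0.17 without overexpression replicate 3, -0.21 without wild-type replicate 1 and -0.17 without wild-type replicate 2. Both families resembled the UDP-glycosyltransferases in spread, with a median within-group standard deviation of 0.61 for cytochromes P450 and 0.55 for glutathione S-transferases on the log2 scale. Replicate 3 was above replicate 1 in both plant materials in 76 cytochromes P450 (54.3%) and 29 glutathione S-transferases (50%), while the reverse held in 40 (28.6%) and 8 (13.8%). Whether the families differ in these respects was not tested.

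The most abundant cytochrome P450, Nitab4.5_0000957g0130, was at 114, 191 and 646 in the overexpression libraries and 209.98, 360.19 and 349.8 in the wild-type libraries. Its overexpression replicate 3 stood far above the rest. Nitab4.5_0004490g0020, the cytochrome P450 with the smallest p, had 0.47, 1.46 and 0.88 in the overexpression libraries. In the wild-type libraries it had 3.44, 3.39 and 3.06, without overlap. Its mean was 0.94 in the overexpression group and 3.30 in the wild type, so it passed the minimum through the wild-type group alone. The log2 difference of that P450, -1.18 ± 0.29 (SE), had a limma adjusted p of 0.999. The most abundant glutathione S-transferase, Nitab4.5_0009332g0010, was at 346, 346 and 415 in the overexpression libraries and 373, 396 and 704 in the wild-type libraries, highest in wild-type replicate 3. Nitab4.5_0006055g0020, with the smallest p of that family, had 2.51, 3.50 and 2.18 in the overexpression libraries and 3.69, 4.00 and 8.20 in the wild-type libraries. It too did not pass the test, although its groups did not overlap. Of the 58 glutathione S-transferases 0 were without overlap higher and 2 lower, beside 4.01% and 3.86% of all tested models.

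Other glycosyltransferase families had 146 tested models of 408, 0 called, 82 above 0 and a median of 0.04. The median was 0.02 without overexpression replicate 1 or 2, 0.09 without overexpression replicate 3 and 0.005 without both replicates numbered 1. Both models named from that list belong to glycosyl transferase family 8, which includes galactinol synthases and enzymes of cell wall synthesis. The most abundant, Nitab4.5_0001617g0060, was at 68.6, 59.0 and 25.2 in the overexpression libraries and 55.7, 31.9 and 94.4 in the wild-type libraries. Nitab4.5_0001076g0110, with the smallest p, was at 5.32, 5.63 and 9.32 in the overexpression libraries and 1.94, 4.66 and 3.59 in the wild-type libraries, and it did not pass the test although its groups did not overlap.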

How the data were processed

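RNA was sequenced from TruSeq libraries, per the labels' protocols. HISAT2, StringTie and RSEM are named in the submitters' processing notes, without versions or settings, and a genome build is not given in the labels. The authors deposited 1 table for each plant material, with 3 libraries in each, of a normalized abundance per model. TPM or FPKM is not stated, nor whether the tables were normalized together. The authors' 2 columns of group means were not used.

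The members and lists were chosen with earlier results of these data known. Each model went to the first list whose text its description held. On log2(value + 1), limma 3.58.1 (R 4.3.3; group alone; trend and robust; 4 residual degrees of freedom) was fitted to all 17962 models that reached a mean of 1, with p-values adjusted over all of them and called below 0.05. Differences are overexpression minus wild type.

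Named members were the 15 most abundant, those whose groups did not overlap, the 6 with the widest log2 range, members at 0 in a library and at 5 or more in another, those next to the minimum, and runs of at least 3 neighbouring members. From each of the 8 lists the most abundant model and that with the smallest p were taken. A choice by smallest p favours groups that do not overlap. Other members and family 28 models were named after their values were seen. Of the model identifiers, 0 matched the RefSeq table, and sequences were not used here. Alternatives were other pseudocounts, minimums, scalings and limma options, a replicate block, and fits without single libraries.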

Additional observations from a re-analysis of the deposited data

How the results depend on the processing

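Under all 16 alternatives 0 members were called, and 0 models of the 8 lists. The 1 model called over all tested models was not called (0) with a pseudocount of 0.1, with no minimum, under each of the 3 scalings, with the replicate number as a block or without any library. The cause was not tested. The members whose groups did not overlap numbered 10 to 29 when libraries were left out, where fewer values must be separated. With overexpression replicate 3 left out they were 23 (27.1%), beside 20.8% of all tested models, and without both replicates numbered 3 they were 29 (34.1%), beside 30.3%. Leaving out both replicates numbered 1 or 3 was chosen after seeing the data. The 6 members whose groups separated kept their direction in every alternative, with adjusted p from 0.705 to 1. They were chosen for that separation. Leaving out libraries, another pseudocount or the replicate block could therefore not reverse it, and the kept direction is no support for a difference.

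Libraries of the same replicate number deviated together from their group means in replicates 1 (r = 0.56 across 17962 models, which are not independent) and 3 (r = 0.42). In replicates 2 r was -0.11. Across the members r was 0.83, -0.06 and 0.68 in replicates 1, 2 and 3. A replicate 2 that lies between the others has small deviations, so these r do not decide whether the numbers pair the libraries. The labels state no pairing, and the main fit used none. With the replicate block 0 members were called and the smallest adjusted p of a member was 0.705.

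Depth was only estimated, as a ratio between libraries, and no counting error is given. The wide intervals limit what single members show.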
